A study of Mus musculus with 12 samples.

Results

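The genes described here are 9 feedback inhibitors of MAP kinase signalling: the dual-specificity phosphatases Dusp1, Dusp4, Dusp5 and Dusp6, the Sprouty genes Spry1, Spry2 and Spry4, and the Spred genes Spred1 and Spred2. They were chosen by symbol. All 9 were among the 15217 genes of the expression table, and all 9 passed the filter on low counts that left 11080 genes for testing.

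The RNA came from wild-type NIH-3T3 cells, a mouse embryonic fibroblast line in long use, and was profiled by SLAM-seq. The method adds 4-thiouridine (4sU), a uridine analogue that enters RNA as it is made. Iodoacetamide then alkylates the incorporated 4sU so that it is read as C, which separates new from old RNA. The conversion was carried out inside methanol-fixed cells at 50 °C for 30 min, or in tubes on isolated RNA at 37 °C for 1 h. For each procedure there were unlabelled cells and cells labelled for 2 h with 4sU at 200 µM or at 800 µM. Each of the 6 groups had 2 libraries, A and B. Whether A and B came from separate cultures is not labelled. The p-values below therefore reflect the spread among these libraries alone, and that spread may be technical.

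The MAP kinase pathway carries growth factor signals from receptor tyrosine kinases through Ras, Raf and MEK to ERK, which enters the nucleus and switches on immediate early genes. Many of the induced genes encode inhibitors of the same pathway. Dual-specificity phosphatases remove the activating phosphates from ERK and related kinases, while Sprouty and Spred proteins act upstream, between the receptor and Raf. In fibroblasts, serum induces several of these genes within an hour, and their RNAs and proteins are typically short-lived.

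Library totals ranged from 3629634 to 7762635 counts. No pair of libraries within a group agreed within sampling noise, with a chi-square per degree of freedom of 3.23 to 22.8. The highest value belonged to the fixed-cell group at 800 µM, whose library A stood apart from library B. Its scaling factor was 0.835 where the other libraries had 0.926 to 1.15, and it lay at 45.4 on the first principal component, against 27.9 for library B. The 800 µM results in fixed cells that follow include it unless stated, and the log2 change of each of the 9 against no 4sU is also given without it. All 8 fibroblast markers were detected in every library, from S100a4 at 6353 to 14010 counts per 1000000 of the scaled library total (CPM) down to Postn at 3.19 to 14.3 CPM. Of the 7 markers of epithelium, blood, endothelium and muscle that were in the table, 6 stayed at or below 0.855 CPM and the macrophage gene Cd68 had 2.78 to 11.1 CPM.

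The sequences upstream of 3 of the genes are shown because these genes, chosen after their values were seen, had the lowest adjusted p-values in the 4sU comparisons below. Promoters from RefSeq (GRCm38.p6) matched 7 of the 9 symbols, and each covers 250 bases before the annotated start and 50 from the start on. The 250 upstream bases are printed 5′ to 3′ on the strand of the gene, and capitals mark the core cAMP response element (TGACG, or CGTCA on the other strand) and the CArG box, the core of the serum response element. Dusp1 lies on the minus strand (chr17:26508473-26508722), and Dusp5 (chr19:53528895-53529144) and Spred2 (chr11:19924192-19924441) on the plus strand.
Dusp1: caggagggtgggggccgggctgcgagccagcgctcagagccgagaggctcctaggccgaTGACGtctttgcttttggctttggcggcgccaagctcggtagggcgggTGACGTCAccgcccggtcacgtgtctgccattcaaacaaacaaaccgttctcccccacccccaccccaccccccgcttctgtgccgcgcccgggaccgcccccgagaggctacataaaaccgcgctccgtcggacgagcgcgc
Dusp5: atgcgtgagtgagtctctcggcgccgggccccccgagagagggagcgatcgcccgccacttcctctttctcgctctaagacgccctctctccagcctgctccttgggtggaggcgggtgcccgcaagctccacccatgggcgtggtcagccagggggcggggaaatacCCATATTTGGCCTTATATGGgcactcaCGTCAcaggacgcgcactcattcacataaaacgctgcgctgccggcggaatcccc
Spred2: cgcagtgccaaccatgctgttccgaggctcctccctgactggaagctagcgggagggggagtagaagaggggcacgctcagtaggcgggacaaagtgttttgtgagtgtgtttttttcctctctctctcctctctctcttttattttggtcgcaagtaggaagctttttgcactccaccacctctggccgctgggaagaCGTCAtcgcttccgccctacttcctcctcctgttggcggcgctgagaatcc

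The Dusp1 sequence held 3 matches to the core cAMP response element. They begin at -191, -143 and -140 from the start, and the pair at -143 and -140 overlaps within the full palindrome TGACGTCA. The Dusp5 sequence held a pair of adjoining CArG boxes at -82 and -72 and a core cAMP response element at -55. The Spred2 sequence held a core cAMP response element at -51. Positions count from the RefSeq start, and GENCODE M21 places some starts elsewhere. It starts Spred2 at 19924375, within the printed bases, so the Spred2 matches at -51 and -33 lie inside the gene there. It starts Dusp5 at 53529109, also within the printed bases but after the Dusp5 matches. GENCODE M21 extends Dusp1 to 26562128 through 1 long transcript model, so all printed Dusp1 bases lie inside the gene there. Both strands were searched over the whole 300 bases. The core cAMP response element was found in 3 of the 7 matched genes and in 20.8% of 32851 promoters, the full palindrome in 1 of 7 and in 1.79%, and the CArG box in 1 of 7 and in 1.63%. GGAAGT, an ETS factor motif, was found in 2 of 7 (Dusp5 at -193 and Spred2 at -33) and in 23.8% of promoters. The AP-1 motif TGANTCA was found in 0 of 7 and in 7.81% of promoters. These letter matches are descriptions and say nothing of whether a factor binds there.

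All 9 are protein-coding in GENCODE M21 (GRCm38), in which Dusp4 lies at chr8:34807297-34819894, Dusp5 at chr19:53529109-53542431, Dusp6 at chr10:99263231-99267489, Spry1 at chr3:37639947-37644598, Spred1 at chr2:117121374-117182279 and Spred2 at chr11:19924375-20024026 on the plus strand. Spry2 lies at chr14:105891947-105896819 and Spry4 at chr18:38586247-38601415 on the minus strand. The 9 genes differed widely in abundance. Per kilobase of deposited gene length, the median level over the 12 libraries was 65.2 CPM for Dusp6, 37.5 CPM for Dusp1 and 35.1 CPM for Dusp5. It was 11.3 CPM for Spred1, 6.32 CPM for Dusp4, 4.94 CPM for Spry2 and 2.99 CPM for Spred2. Spry1 and Spry4 came last at 0.856 and 0.522 CPM per kilobase. Over the 12 libraries the range for Dusp6 was 58.1 to 109 CPM per kilobase, and it met those of Dusp5 (27.2 to 61.8) but not of Dusp1 (19.4 to 57.8). The ranges of Dusp1 and Dusp5 overlapped, with Dusp1 above Dusp5 per kilobase in 4 of the 4 libraries without 4sU and in 0 of the 8 with 4sU. Spred1 (8.70 to 13.3) stood apart from its neighbours in the order, while Dusp4 (4.09 to 8.31), Spry2 (3.30 to 7.24) and Spred2 (1.12 to 4.97) each overlapped the next. Spry1 (0.193 to 1.43) and Spry4 (0.224 to 0.806) did not separate either. Spry1 was counted at 4 to 31 reads per library and Spry4 at 6 to 29, and their fold changes have correspondingly large errors. These are bulk levels, in which fewer cells that express a gene and less RNA per cell cannot be told apart.

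**Figure D1:**
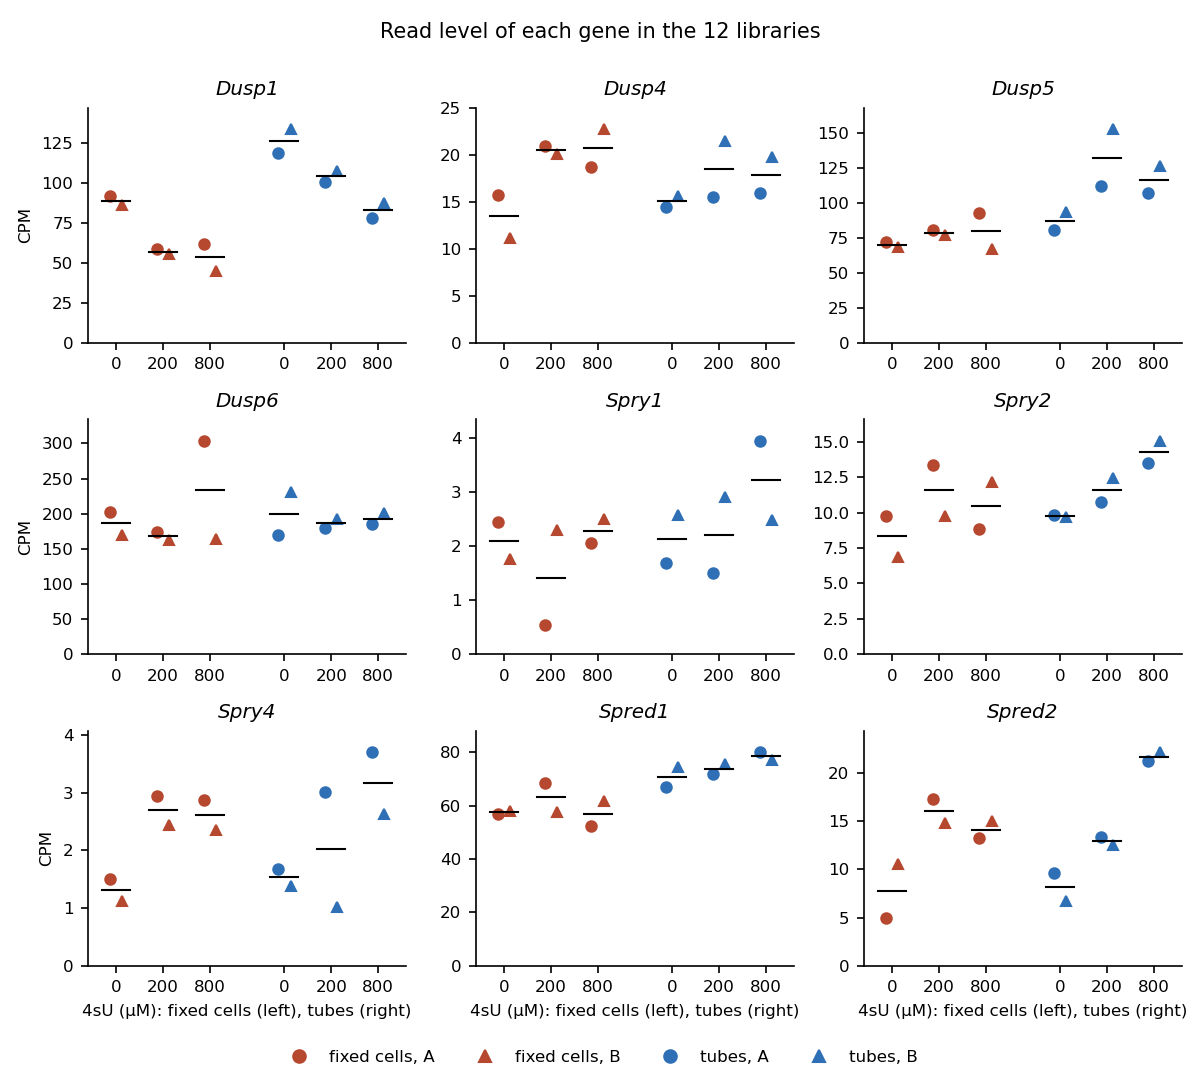
Levels in CPM (y axis, from 0, a separate scale for each gene) of the 9 genes in each of the 12 libraries, by 4sU concentration in µM, with fixed cells at left in red and tubes at right in blue. Circles are library A, triangles library B and black bars the mean of the pair; Dusp1 lies lower with 4sU in both procedures, and Spred2 lies higher.

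Dusp1 was the only one of the 9 with lower counts at 800 µM 4sU in both procedures. It encodes a nuclear phosphatase for ERK, JNK and p38 and is a classical immediate early gene. In fixed cells Dusp1 had 91.8 and 85.9 CPM without 4sU, 58.4 and 55.5 CPM at 200 µM, and 62.0 and 44.9 CPM at 800 µM. In tubes it had 118.6 and 133.7 CPM without 4sU, 100.8 and 107.5 CPM at 200 µM, and 78.2 and 87.6 CPM at 800 µM. Every library with 4sU lay below both libraries without 4sU of the same procedure. At 800 µM, Dusp1 fell by 0.74 on the log2 scale in fixed cells (SE 0.15, edgeR, Benjamini-Hochberg (BH) adjusted p = 0.0160) and fell by 0.61 in tubes (SE 0.15, edgeR, BH-adjusted p = 0.0432). At 200 µM the log2 change was -0.64 in fixed cells (SE 0.15, edgeR, BH-adjusted p = 0.0567) and -0.28 in tubes (SE 0.15, edgeR, BH-adjusted p = 0.310), and neither passed the threshold of 0.05.

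The Dusp1 calls at 800 µM were not kept in every fit that left out 1 library. Such fits leave 1 library in a group, and the share of all genes called changed in them too. In tubes the log2 change was -0.69 to -0.51 over the 4 fits, and none kept the call. In fixed cells it was -0.93 to -0.52 over the 4 fits, and the call was lost without either library that had no 4sU. Without library A at 800 µM in fixed cells, which stood apart, the change was -0.93. The direction was the same in all 8 of these fits. In GENCODE M21, 1 long transcript model stretches Dusp1 to chr17:26505590-26562128 on the minus strand, where it overlaps Ergic1 on the plus strand, and the use of strand in counting is among the details not given in the sources used here. In RefSeq, Dusp1 spans 26505591 to 26508472 and Ergic1 begins at 26560762. Ergic1 was present at 252 to 339 CPM, and its log2 change at 800 µM was 0.17 in fixed cells and 0.24 in tubes (edgeR, BH-adjusted p = 0.448 and 0.307). Whether Ergic1 reads entered the Dusp1 counts was not tested.

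Dusp5 encodes a nuclear phosphatase specific for ERK, and its level was higher in tubes with 4sU without passing the threshold. Fixed cells had Dusp5 at 71.9 and 68.3 CPM without 4sU, 80.2 and 76.9 CPM at 200 µM, and 92.8 and 67.3 CPM at 800 µM. In tubes it had 80.8 and 93.3 CPM without 4sU, 111.7 and 152.8 CPM at 200 µM, and 107.0 and 126.1 CPM at 800 µM. In fixed cells library B at 800 µM lay below both libraries without 4sU, whereas in tubes every library with 4sU lay above both without. The log2 change in fixed cells was 0.16 at 200 µM and 0.19 at 800 µM (SE 0.17 each, edgeR, BH-adjusted p = 0.741 and 0.586), and without library A at 800 µM it was -0.01 there. In tubes it was 0.61 at 200 µM (SE 0.17, edgeR, BH-adjusted p = 0.0544) and 0.42 at 800 µM (SE 0.17, edgeR, BH-adjusted p = 0.206). The Dusp5 change at 200 µM in tubes ranged from 0.36 to 0.81 over the 4 fits that left out 1 library. It was lowest without tube library B at 200 µM and highest without library A of that group.

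Dusp6, the cytoplasmic ERK phosphatase, was the most abundant of the 9. Fixed cells had Dusp6 at 203.1 and 169.5 CPM without 4sU, 174.2 and 162.5 CPM at 200 µM, and 304.0 and 164.4 CPM at 800 µM. In tubes it had 169.6 and 230.2 CPM without 4sU, 179.7 and 193.0 CPM at 200 µM, and 184.7 and 200.5 CPM at 800 µM. Groups with and without 4sU overlapped throughout, and at 800 µM in fixed cells library A lay far above all others and library B below both libraries without 4sU. The log2 change at 800 µM was 0.33 in fixed cells (SE 0.21, edgeR, BH-adjusted p = 0.386) and -0.06 in tubes (SE 0.21, edgeR, BH-adjusted p = 0.928). The value in fixed cells turned on 1 library. Without library A, which stood apart as described above, it was -0.13 (edgeR, BH-adjusted p = 0.754), and without library B it was 0.71 (edgeR, BH-adjusted p = 0.00594).

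Dusp4, a nuclear phosphatase for ERK and JNK, had 15.8 and 11.2 CPM without 4sU, 21.0 and 20.1 CPM at 200 µM, and 18.7 and 22.8 CPM at 800 µM in fixed cells. In tubes it had 14.4 and 15.7 CPM without 4sU, 15.5 and 21.5 CPM at 200 µM, and 15.9 and 19.8 CPM at 800 µM. In fixed cells all libraries with 4sU lay above those without. The log2 change at 800 µM was 0.63 in fixed cells (SE 0.24, edgeR, BH-adjusted p = 0.142) and 0.24 in tubes (SE 0.24, edgeR, BH-adjusted p = 0.654), and neither passed. In fixed cells it was 0.82 without library A at 800 µM (edgeR, BH-adjusted p = 0.1197).

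Spred2 was the only one of the 9 that rose in any comparison, at 800 µM in tubes. Spred proteins hold Ras signalling down by bringing the Ras inactivator neurofibromin to the membrane. Spred2 had 4.98 and 10.6 CPM without 4sU in fixed cells, 17.2 and 14.8 CPM at 200 µM, and 13.2 and 15.0 CPM at 800 µM. In tubes it had 9.62 and 6.74 CPM without 4sU, 13.3 and 12.5 CPM at 200 µM, and 21.2 and 22.1 CPM at 800 µM. All 8 libraries with 4sU lay above all 4 without. In fixed cells the log2 change was 1.03 at 200 µM and 0.85 at 800 µM (SE 0.29 each, edgeR, BH-adjusted p = 0.110 and 0.114), and neither passed. These 2 values turned on the libraries without 4sU in fixed cells, as they were 0.60 and 0.42 without library A of that group and 1.75 and 1.57 without library B, again with no call (edgeR, BH-adjusted p from 0.0641 to 0.734). Without library A at 800 µM the change at that dose was 0.99 (edgeR, BH-adjusted p = 0.132). In tubes it was 0.67 at 200 µM (SE 0.31, edgeR, BH-adjusted p = 0.224) and 1.41 at 800 µM (SE 0.29, edgeR, BH-adjusted p = 0.0178), of which the second passed. The rise at 800 µM in tubes passed in 1 of the 4 fits that left out 1 library (without tube library A that had no 4sU), with log2 changes of 1.17 to 1.68 and edgeR BH-adjusted p from 0.0433 to 0.229.

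Spred1, its close relative, was far steadier. It had 57.0 and 58.1 CPM without 4sU, 68.4 and 57.7 CPM at 200 µM, and 52.3 and 61.6 CPM at 800 µM in fixed cells. In tubes it had 67.1 and 74.6 CPM without 4sU, 72.0 and 75.7 CPM at 200 µM, and 80.0 and 77.0 CPM at 800 µM. At 800 µM the log2 change was -0.01 in fixed cells (SE 0.14, edgeR, BH-adjusted p = 0.975) and 0.15 in tubes (SE 0.14, edgeR, BH-adjusted p = 0.641). In fixed cells it was 0.15 without library A at 800 µM (edgeR, BH-adjusted p = 0.688).

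The Sprouty genes, which encode inhibitors of signalling between growth factor receptors and Raf, had no call. In fixed cells Spry2 had 9.77 and 6.88 CPM without 4sU, 13.4 and 9.79 CPM at 200 µM, and 8.83 and 12.1 CPM at 800 µM. In tubes Spry2 had 9.86 and 9.71 CPM without 4sU, 10.8 and 12.5 CPM at 200 µM, and 13.5 and 15.1 CPM at 800 µM. The 800 µM libraries overlapped those without 4sU in fixed cells and not in tubes. The log2 change of Spry2 at 800 µM was 0.34 in fixed cells (SE 0.28, edgeR, BH-adjusted p = 0.520) and 0.54 in tubes (SE 0.27, edgeR, BH-adjusted p = 0.305). Without library A at 800 µM in fixed cells it was 0.60 there (edgeR, BH-adjusted p = 0.365). Spry4 had 1.50 and 1.12 CPM without 4sU, 2.94 and 2.45 CPM at 200 µM, and 2.87 and 2.34 CPM at 800 µM in fixed cells, and 1.68 and 1.39, 3.01 and 1.03, and 3.70 and 2.64 CPM in tubes. Its libraries at 800 µM lay above those without 4sU in both procedures. It had a log2 change at 800 µM of 0.98 in fixed cells (SE 0.60) and 1.05 in tubes (SE 0.57), with edgeR BH-adjusted p of 0.365 and 0.362. Spry1 had 0.14 in fixed cells (SE 0.62) and 0.58 in tubes (SE 0.60), with edgeR BH-adjusted p of 0.932 and 0.673. Without library A at 800 µM in fixed cells, Spry4 had 0.89 and Spry1 0.32 (edgeR, BH-adjusted p = 0.587 and 0.879). At their read numbers a change of the size seen for Spry4 was not separable from the spread between libraries.

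**Figure D2:**
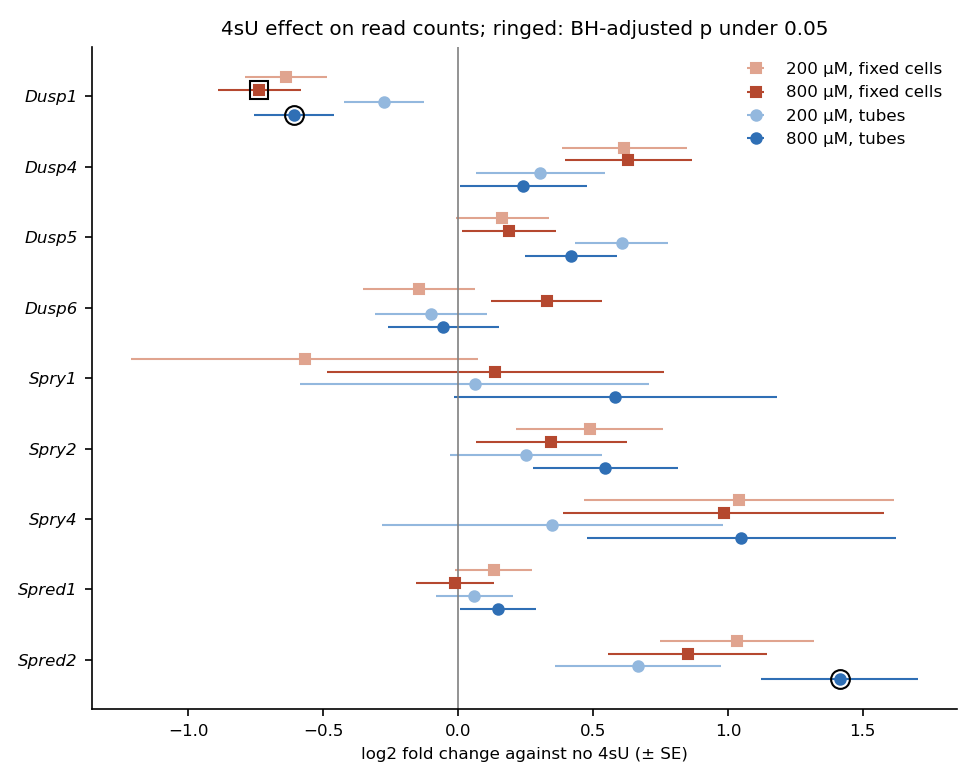
Log2 fold change in counts against no 4sU of the same procedure (x axis, with SE as bars) for the 9 genes (y axis) at 200 and 800 µM in fixed cells (squares) and tubes (circles), from the edgeR fit. Ringed points have a BH-adjusted p under 0.05: Dusp1 at 800 µM in both procedures (-0.74 and -0.61) and Spred2 at 800 µM in tubes (1.41).

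The calls among the 9 at each dose follow, beside the share of all tested genes called. At 800 µM in fixed cells 1 of the 9 was called, as lower, while 2.66% of all tested genes were called and 1.89% as lower, and without library A at 800 µM it was again 1 of the 9, Dusp1, with 2.08% of all genes called. At 800 µM in tubes 2 of the 9 were called, 1 higher and 1 lower, where 1.87% of all tested genes were called, 0.912% as higher and 0.957% as lower. At 200 µM 0 of the 9 were called in fixed cells, where 0.812% of all tested genes were, and 0 of the 9 in tubes, where 3.75% were. No test of the group against other genes was made, and the counts are given as descriptions. At an unadjusted p under 0.05, 3 of the 9 passed at 200 µM in fixed cells, where 12.6% of all tested genes did, and 2 in tubes, where 20.8% did. DESeq2 called 1 of the 9 in each, Dusp1 in fixed cells, where it called 1.07% of all tested genes, and Dusp5 in tubes, where it called 4.98%. The median log2 change of the 9 at 800 µM was 0.33 in fixed cells and 0.42 in tubes, against 0.00 and 0.03 over all tested genes. The sign was positive for 7 of the 9 in each procedure, against 49.9% of all tested genes in fixed cells and 53.6% in tubes. These were not the same 7, as Dusp1 and Spred1 were negative in fixed cells and Dusp1 and Dusp6 in tubes. Without library A at 800 µM in fixed cells, Dusp5 turned to -0.01, Dusp6 to -0.13 and Spred1 to 0.15. The comparisons at 200 and 800 µM share the libraries without 4sU, so they are not independent of each other.

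The step between doses and the difference between procedures in the 4sU effect held no calls at all. Between 800 and 200 µM, edgeR called 0 of the 9 and 0.0% of all tested genes in fixed cells, and likewise 0 of the 9 and 0.0% in tubes. At an unadjusted p under 0.05, 872 genes in fixed cells (7.87%) and 987 in tubes (8.91%) passed, including 1 and 2 of the 9, and DESeq2 called 0 and 13 genes. The 4sU effect in fixed cells minus that in tubes gave 0 of 9 and 0.0% at 800 µM, and 0 of 9 and 0.0% at 200 µM. There 654 and 993 genes had an unadjusted p under 0.05, with 0 of the 9 among them, and DESeq2 called 0 and 11 genes. For Dusp1 that difference was -0.13 at 800 µM and -0.36 at 200 µM (SE 0.21 each, edgeR, BH-adjusted p = 0.951 and 0.649). For Spred2 it was -0.56 at 800 µM (SE 0.42, edgeR, BH-adjusted p = 0.902), an error too wide to tell whether the procedures shared the rise.

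Without 4sU, fixed cells and tubes differed in the counts of 31.4% of all tested genes, and 15.2% were lower in fixed cells. Of the 9 feedback inhibitors 1 was called, as lower: Dusp1, at 91.8 and 85.9 CPM in fixed cells, against 118.6 and 133.7 CPM in tubes. It fell by 0.51 on the log2 scale (SE 0.15, edgeR, BH-adjusted p = 0.0146), and passed in 1 of the 4 fits that left out 1 library (0.0262 to 0.125). The log2 differences of the 9 were all negative with the 4 libraries together, with a median of -0.23 against -0.01 over all tested genes, of which 49.3% were positive. Several signs turned when 1 library was left out. Without tube library B, Dusp6 was at 0.14 and Spry1 at 0.31, and without tube library A, Spred2 was at 0.22. Without fixed-cell library A, Spred2 was at 0.38, and without fixed-cell library B, Dusp4 was at 0.04 and Spry1 at 0.15. For Dusp5 the difference was -0.31 and for Spred1 -0.30 (SE 0.17 and 0.14, edgeR, BH-adjusted p = 0.185 and 0.124). The procedures also differ in temperature and time of the conversion, and these cannot be told apart from fixation.

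The other genes of the pathway are given by their counts, beside the background at 800 µM (2.66% of all tested genes called in fixed cells and 1.87% in tubes) and at 200 µM (0.812% and 3.75%). The lists of these genes were written with earlier results of these data known. Their counts and medians are therefore descriptions only, and no list was tested against other genes. Of 11 receptor tyrosine kinases and related receptors tested, 12 kinases of the Raf, MEK and ERK cascade, and 12 other dual-specificity phosphatases, 0 were called in either direction at either dose in either procedure. Of 16 adaptors and Ras genes, 1 rose: Hras at 200 µM in tubes, by 0.79 on the log2 scale (SE 0.21, edgeR, BH-adjusted p = 0.0401). Of 19 genes that ERK signalling induces, 3 rose and 1 fell at 800 µM in fixed cells, and 5 rose and 0 fell in tubes. At 200 µM 2 rose and 1 fell in fixed cells, and 3 rose and 1 fell in tubes. The risers included the transcription factor Egr3, with log2 changes at 800 µM of 1.32 in fixed cells and 1.33 in tubes (edgeR, BH-adjusted p = 0.00594 and 0.00464), and the urokinase receptor Plaur, with 1.16 and 1.12 (edgeR, BH-adjusted p = 0.00286 and 0.00524). The ephrin receptor Epha2 rose in tubes, by 1.28 at 800 µM and 1.04 at 200 µM (edgeR, BH-adjusted p = 0.00420 and 0.0137). The gene that fell was each time Egr1, an immediate early transcription factor, with -0.81 at 800 µM in fixed cells, and -1.13 in fixed cells and -0.62 in tubes at 200 µM (edgeR, BH-adjusted p = 0.0110, 0.00323 and 0.0378). Without library A at 800 µM in fixed cells, 4 of the 19 rose and 0 fell, with Egr3 at 1.73, Plaur at 1.18 and Egr1 at -0.58 (edgeR, BH-adjusted p = 3.97e-05, 0.00325 and 0.0897). The medians of the 19 in fixed cells and tubes at 800 µM were 0.09 and 0.23, against 0.00 and 0.03 over all tested genes.

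Of 14 other negative regulators of the pathway, 1 rose and 2 fell at 800 µM in fixed cells, and 1 rose and 0 fell in tubes. The riser was Errfi1, an inhibitor of the EGF receptor, with log2 changes of 0.65 and 1.14 (SE 0.16 each, edgeR, BH-adjusted p = 0.0325 and 0.00110). The genes that fell in fixed cells were Rasa2, a Ras GTPase-activating protein, with -1.14, and the cytokine signalling inhibitor Socs3, with -0.68 (edgeR, BH-adjusted p = 0.00804 and 0.0404). At 200 µM 0 rose and 1 fell in fixed cells (Socs3), and 1 rose and 0 fell in tubes (Errfi1). Without library A at 800 µM in fixed cells 0 of the 14 rose and 1 fell there, with Rasa2 at -1.32, Socs3 at -0.69 and Errfi1 at 0.64 (edgeR, BH-adjusted p = 0.00729, 0.0861 and 0.0563).

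Without 4sU, where 31.4% of all tested genes were called between fixed cells and tubes and 15.2% were lower in fixed cells, each of the lists held calls. Of the 11 receptors 0 were higher and 5 lower in fixed cells, of the 14 other negative regulators 0 and 6, and of the 19 genes that ERK induces 0 and 3. Of the 16 adaptors and Ras genes 2 were higher and 1 lower, of the 12 kinases of the cascade 3 and 2, and of the 12 other phosphatases 3 and 3. The median log2 difference was -0.56 for the receptors and between -0.34 and -0.02 for the other lists.

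Nearly all RNA of Dusp1, Dusp5 and Dusp6 was new after 2 h. The deposited table gives the new share of each gene's RNA as its most probable value in each of the 8 libraries with 4sU. Averaged over the 8, it was 99.1% for Dusp6, 98.5% for Dusp5 and 98.2% for Dusp1. It was 95.9% for Spry4, 95.2% for Dusp4, 95.0% for Spred2 and 93.5% for Spry2. Spred1 and Spry1 came last, at 85.4% and 76.3%. The median over all 11390 genes with a ratio in each of the 8 was 44.6%, and over the 5532 genes with at least 100 counts in each it was 35.3% (quartiles 21.6% and 57.2%). Among those 5532 genes, Dusp6 stood above 99.9%, Dusp5 above 99.7%, Dusp1 above 99.5% and Spred1 above 91.4%. The other 5 had fewer counts, and against all 11390 genes they stood above 97.7% (Spry4), 97.2% (Dusp4), 96.9% (Spred2), 95.4% (Spry2) and 79.0% (Spry1). The Spry4 values rested on 6 to 29 reads per library. Its deposited posterior mean lay below the most probable value in each of the 8, at 77.4% to 99.0% against 83.1% to 100%. The place of Spry4 above Dusp4 was therefore not well measured. Unlabelled cells have no ratio in the table, and a background for it is therefore lacking.

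**Figure D3:**
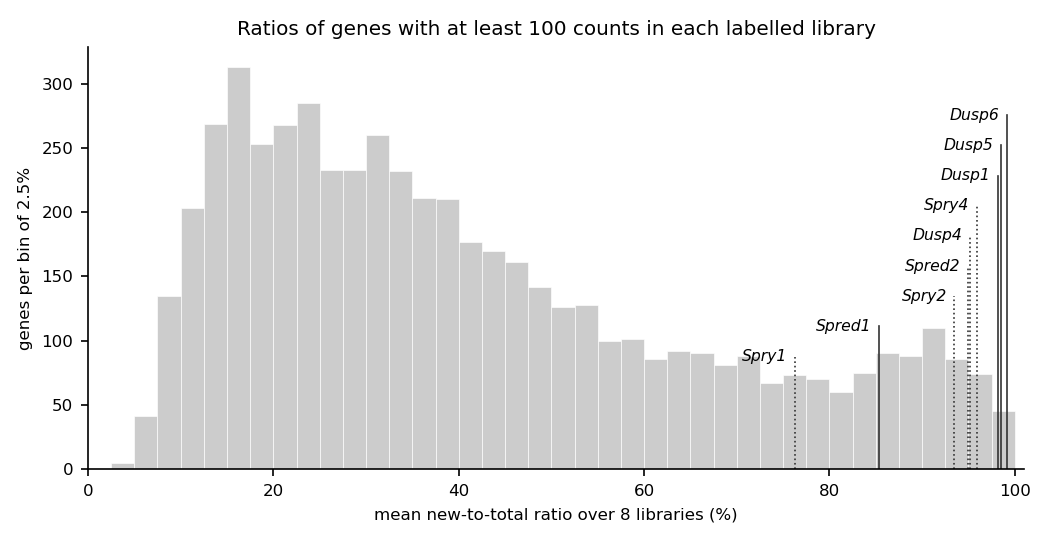
Number of genes (y axis, in bins of 2.5 percentage points) by the mean share of new RNA in percent over the 8 libraries with 4sU (x axis), for the 5532 genes with at least 100 counts in each. Lines mark the 9 feedback inhibitors, solid for the 4 that are among the 5532 and dotted for the 5 with fewer counts, and 8 of the 9 lie at or above 85.4%, against a median of 35.3%.

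The share of new Dusp1 RNA was 91.4% and 100% in fixed cells at 800 µM, 97.4% and 100% in fixed cells at 200 µM, 97.4% and 99.1% in tubes at 800 µM, and 100% and 100% in tubes at 200 µM. The lowest value again came from fixed-cell library A at 800 µM, whose interval (0.05 to 0.95 quantiles) was 80.9% to 97.2%. A most probable value of 100% can lie above its own 0.95 quantile in the deposited table. Dusp5 ranged from 95.3% to 100% and Dusp6 from 97.2% to 100% over the 8 libraries. Dusp4 ranged from 77.5%, in fixed-cell library A at 800 µM (interval 56.4% to 92.6%), to 100%. Of the 4 members with at least 100 counts in each library, Spred1 alone stayed below 100% in all 8. Its new share was 77.2% and 80.3% in fixed cells at 800 µM, 90.2% and 94.9% in fixed cells at 200 µM, 82.3% and 85.0% in tubes at 800 µM, and 85.8% and 87.2% in tubes at 200 µM. The intervals were up to 79.8 percentage points wide for Spry1 and up to 52.7 for Spry4. They reached 43.3 for Spry2, 36.2 for Dusp4 and 27.3 for Spred2. Neither the lower average of Spry1 nor the high average of Spry4 was therefore well measured, and the order among Spry4, Dusp4, Spred2 and Spry2 was not resolved.

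**Figure D4:**
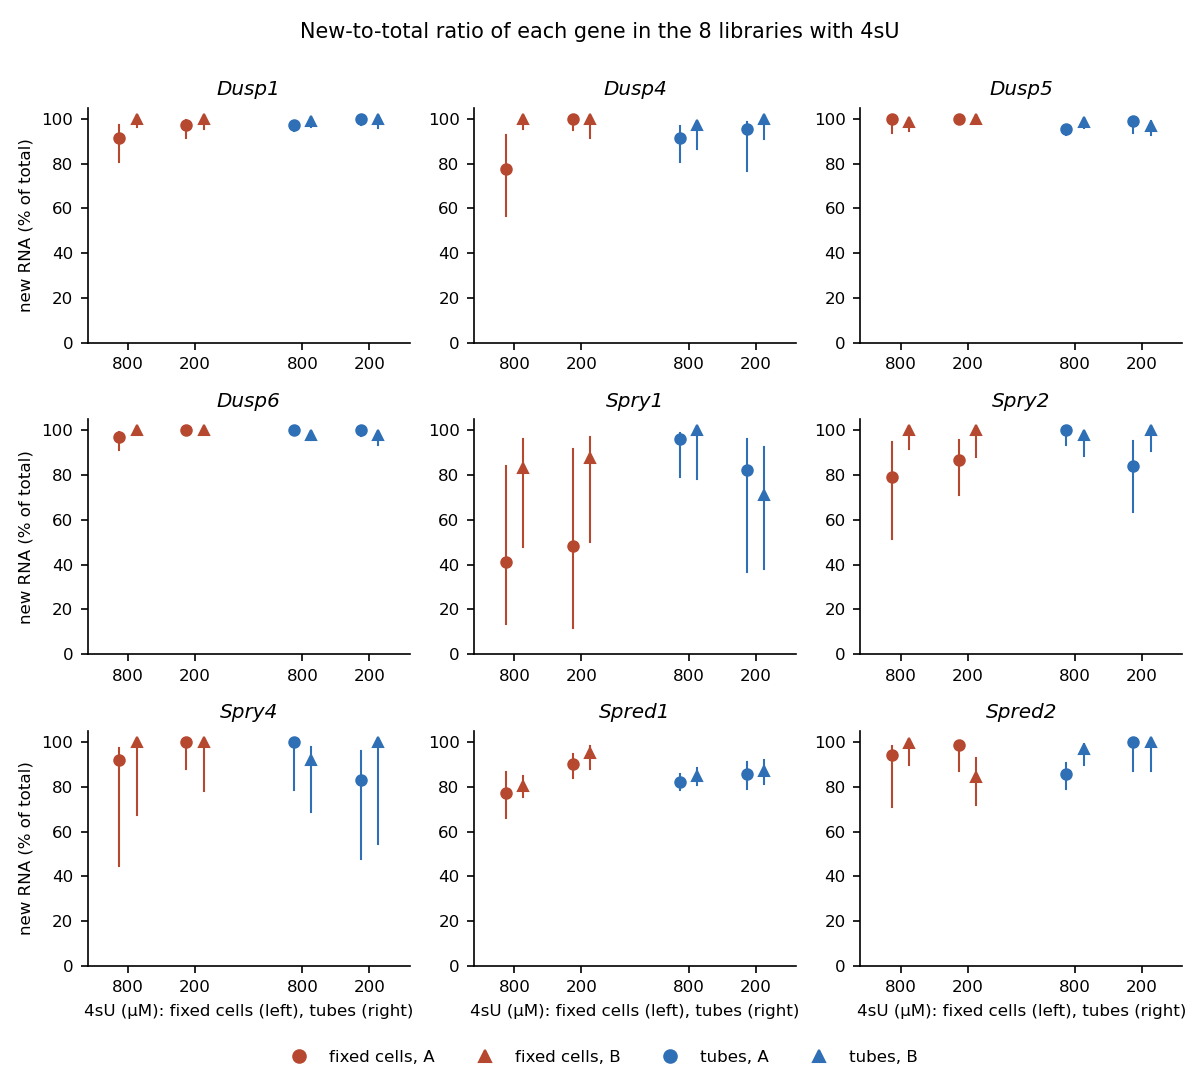
Share of new RNA in percent (y axis, 0 to 100) for the 9 genes in the 8 libraries with 4sU, by 4sU concentration in µM, with fixed cells at left in red and tubes at right in blue. Symbols are the most probable value in library A (circles) and library B (triangles) and lines run from the 0.05 to the 0.95 quantile; the lines are short for Dusp5 and Dusp6 and reach 79.8 percentage points for Spry1.

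The new share was compared between groups for the 4 members with at least 100 counts in each of the 8 libraries, and 0 of these 4 were called in any of the 4 comparisons. The limma test on the logit scale called 0.0% of the 5532 genes between fixed cells and tubes at 800 µM, 0.0% between them at 200 µM, 0.0% between 800 and 200 µM in tubes, and 0.0181% between 800 and 200 µM in fixed cells. At an unadjusted p under 0.05, 1121, 1056, 467 and 918 genes passed. The one member among them was Spred1 in fixed cells, where the new share at 800 µM minus that at 200 µM was -13.8 percentage points (limma on the logit, unadjusted p = 0.0191, BH-adjusted p = 0.257). The median of all genes also moved between these libraries, with 26.0% and 32.1% at 800 µM and 35.7% and 34.8% at 200 µM. Its part in the Spred1 difference was not tested.

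Multiplying each level by its new and old share separates the 2 pools. The old Dusp1 RNA left after 2 h was 0 to 5.32 CPM over the 8 libraries, at most 5.99% of the mean level without 4sU in the same procedure, and at most 13.4% at the lower end of the ratio's interval. The highest values came from fixed-cell library A at 800 µM, and in the other 7 libraries the limits were 2.02 CPM, 1.72% and 5.75%. New Dusp1 RNA made up the rest, with 56.7 and 44.9 CPM at 800 µM and 56.9 and 55.5 CPM at 200 µM in fixed cells, and 76.1 and 86.9 CPM at 800 µM and 100.8 and 107.5 CPM at 200 µM in tubes. The Dusp1 level in libraries with 4sU was thus almost wholly a level of new RNA. Old Dusp6 RNA was at most 4.49% (2.14% without that library) and old Dusp5 RNA at most 5.77% of the level without 4sU. Old Dusp4 RNA was at most 31.1% (9.27% without that library). Old Spred1 RNA was 5.08% to 21.1%.

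New Spred2 RNA was 12.5 and 15.0 CPM at 800 µM and 17.0 and 12.5 CPM at 200 µM in fixed cells, and 18.1 and 21.4 CPM at 800 µM and 13.3 and 12.5 CPM at 200 µM in tubes. At the most probable share, each of these values exceeded the total Spred2 level of every library without 4sU, the highest of which was 10.6 CPM. At the lower end of the ratio's interval, fixed-cell library A at 800 µM had 9.40 CPM, below that level, and the next lowest, fixed-cell library B at 200 µM, had 10.7 CPM. Old Spred2 RNA was 0 to 3.04 CPM. The split gives no new pool for cells without 4sU, so the new pools were set only against total levels there, and no test was made.

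**Figure D5:**
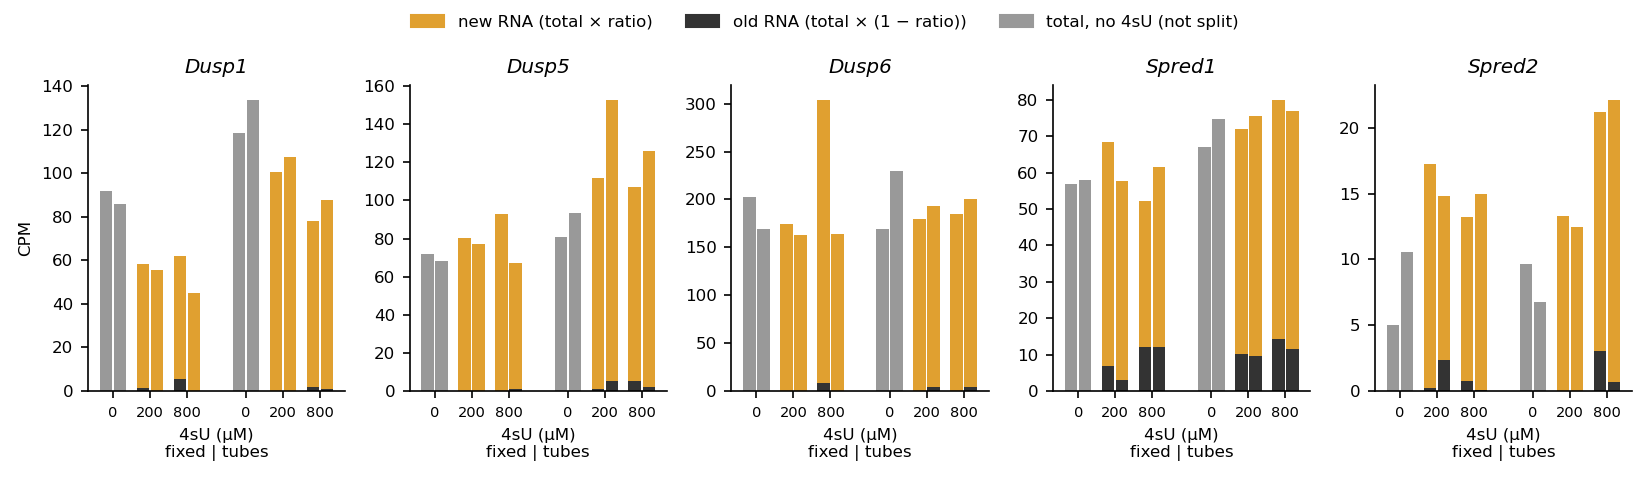
Level in CPM (y axis, from 0) of 5 of the genes in each library, A left and B right of each pair, by 4sU concentration in µM with fixed cells at left and tubes at right; libraries with 4sU are split into new RNA (orange) and old RNA (black), and libraries without 4sU are not split (grey). Old RNA is at most 5.32 CPM for Dusp1 (2.02 CPM without fixed-cell library A at 800 µM), and for Spred1 it is 2.92 to 14.2 CPM.

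The 3′ untranslated regions differed in AU-rich elements, sequences that recruit factors for rapid RNA decay. In GENCODE M21, Dusp1 had 4 ATTTA pentamers in 693 bases, or 5.77 per kilobase, above 95.9% of 10480 genes. The median gene had 1.42 per kilobase. Spred1 had 12 pentamers, but in 4333 bases, which is 2.77 per kilobase. Dusp5 and Dusp6, with the highest new shares, had 1 pentamer each, at 0.899 and 0.838 per kilobase. The longer element TATTTAT was present in 6 of the 9 and in 32.1% of genes, and Dusp4, Dusp5 and Dusp6 were without it. High new shares were found in members with a dense and with a sparse set of these elements. A relation between the elements and the new share was not tested.

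For the 5 members with a mean count of at least 100, the genes with the most similar profile over the 12 libraries were sought among 6730 genes by the root mean square difference of their centred log2 levels. For Dusp1 these were Cdc25a (0.108) and Adamts1 (0.124). For Dusp5 they were Tbrg4 (0.134) and Pdpn (0.150), for Dusp6 Nop56 (0.101) and Snx1 (0.107), for Dusp4 Cirbp (0.155) and Cops2 (0.159), and for Spred1 Ube2z (0.0741) and Wipi2 (0.0752). The members' own root mean square spread was 0.458 for Dusp1, 0.355 for Dusp5, 0.279 for Dusp4, 0.245 for Dusp6 and 0.193 for Spred1. None of these nearest genes was itself one of the 9, of which only the 5 named were among the 6730 genes searched.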

How the data were processed

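The deposited table of 15217 genes holds expected counts for 12 libraries, since 16.2% to 22.0% of a library's values were not whole. In 8 of them, those with 4sU, the deposited new-to-total ratio is a fraction with a maximum a posteriori value, a posterior mean and 0.05 and 0.95 quantiles, per the file headers. Columns named alpha and beta are deposited scores of the ratio's distribution and were not tested. STAR 2.7.10b, Bowtie2 2.3.0 and cutadapt appear in the submitters' processing notes without roles. Genome build, counter and the ratio's estimator: not given in the sources used here.

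Counts were rounded, filtered with filterByExpr (minimum count 10, minimum total 15) and tested in 1 fit of the 6 groups with edgeR 4.0.16 (R 4.3.3; quasi-likelihood, TMM factors), with BH adjustment over 11080 genes at 0.05, in 9 comparisons. CPM are per 1000000 of the TMM-scaled total. The common biological coefficient of variation was 12.3%. The ratio was tested in 4 comparisons with limma 3.58.1 (trend) on the logit, held between 0.001 and 0.999, at 5532 genes with at least 100 counts in each library with 4sU. The fits were tested on simulated data. Genes were placed on GENCODE M21 (GRCm38) by ID, with 15185 matched, and the longest 3′ untranslated region per gene was taken.

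The 9 genes, the pathway lists and the tests were chosen with earlier results of these data known. Among pathway genes the text names some that passed the threshold, and the nearest profiles are the 2 closest genes. Alternatives were DESeq2 1.42.0 and its size factors, scaling on the 1 in 3 genes with the lowest ratio, no filter, unrounded counts, a replicate block, only the groups compared, other count minimums, and leaving out each library.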

Additional observations from a re-analysis of the deposited data

How the results depend on the processing

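Of 1085 recomputed values of single genes, 1036 kept their direction and side of the threshold or moved by less than 1 SE, 14 lost a call, 14 gained one and 21 without a call changed sign by more than 1 SE, and 0 called values changed sign. The number of the 9 genes called at 800 µM in tubes was 2, with 1 under the replicate block (Dusp1 at -0.61, edgeR, BH-adjusted p = 0.0607; 1.60% of all genes called) and 0 to 1 when a library was left out (0.195% to 0.778%). At 800 µM in fixed cells it was 1, with 2 without a filter on low counts (5.43%), 0 with only the groups compared (0.378%) and 0 to 2 when a library was left out (0.212% to 10.6%). At 200 µM it was 0 in both procedures. In fixed cells it became 1 with scaling on the genes with the lowest ratio (1.52%), 1 with DESeq2 (1.07%), 2 without the filter (1.68%) and 2 with only the groups compared (6.09%), and in tubes it became 1 with DESeq2 (4.98%), 1 without the filter (5.69%) and 0 to 1 when a library was left out (0.159% to 1.85%). Between 800 and 200 µM in fixed cells it was 0 to 1 when a library was left out (0.0% to 4.28%). Between fixed cells and tubes without 4sU it was 1, with 0 to 1 when a library was left out (19.02% to 23.4%) and 3 with scaling on the genes with the lowest ratio (Dusp1, Dusp5 and Spred1, all lower, where 36.3% of all genes were called). That scaling shifted the median of all genes by -0.14 and -0.10 at 800 µM in fixed cells and tubes, by -0.09 and -0.11 at 200 µM, and by -0.24 between the procedures, and it turned the sign of Spry1 at 800 µM in fixed cells (to -0.00338) and of Spry1 and Spred1 at 200 µM in tubes (to -0.05 each). The cause of these changes was not tested. Deviations of same-lettered libraries correlated at -0.104 to 0.0946 over 15 pairs of groups. Given the spread between libraries, such values cannot tell whether equal letters share a culture or day. The replicate block changed no call other than that of Dusp1 at 800 µM in tubes. No result for Spry1 or Spry4 reaches far at 4 to 31 counts.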
